A study of Danio rerio with 8 samples.

Results

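Control zebrafish (Danio rerio) embryos at 6 hours post fertilization (hpf) were compared with control embryos at 2 hpf, over the genes that had at least 5 RPKM at either age. This filter kept 10754 of the 33737 Ensembl identifiers in the tables. RPKM is the number of reads of a gene scaled by its length and by the reads of its library, so values can be set side by side between genes. The embryos had received a control morpholino, an antisense oligomer that serves as the injection control, per the sample titles, and carried the wild-type genotype label. The study set them against embryos that had received a morpholino to ddx3xb, which codes for a DEAD-box RNA helicase. Total RNA of embryos was taken with TRIzol at each age and its poly(A) fraction was captured on oligo(dT) beads. Both control groups had 2 libraries, as had the 2 knockdown groups at 6 and 2 hpf, and each group came as 1 value per gene. No spread between libraries, error or test was therefore available. An age between these named in the study's design was not analysed here.

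The fertilized egg carries a store of maternal RNA, laid down while the oocyte grew, and early cleavage runs on it almost without transcription. The embryonic genome is then switched on by maternal transcription factors, of which Nanog, Pou5f3 and Sox19b are the best known in zebrafish, and part of the maternal store is destroyed, partly through the zygotic microRNA miR-430. At 2 hpf the embryo is a cleaving mound of cells before the main wave of transcription; at 6 hpf it is an early gastrula with an outer enveloping layer, a yolk syncytial layer and the germ layers being laid out.

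Ratios are given as log2 of (RPKM + 1) at 6 hpf over (RPKM + 1) at 2 hpf, which understates the change of genes with low values. The words risen and fallen are kept for ratios of at least 2-fold. At 6 hpf 2859 genes had risen, 26.6% of those compared, and 3670 had fallen, 34.1%, while 4225 (39.3%) stayed within 2-fold. At 4-fold or more 1844 genes (17.1%) had risen and 1381 (12.8%) had fallen. The median ratio was -0.32, with quartiles of -1.41 and 1.14. RPKM is relative to the library, and the balance of rises and falls depended on how the tables were scaled: with the tables rescaled by the median ratio of genes, 3495 had risen and 2765 had fallen, and the median ratio was 0.11. That rescaling centres the ratios by design, so a median near 0 was built in. With equal RPKM sums 2703 had risen and 3940 had fallen (median -0.44), and with quantile normalization 2972 and 3448 (-0.20). Falls outnumbered rises in every scaling but the median-ratio one. List medians below are read against the -0.32 of all genes.

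Rises reached further than falls. The scale limits a fall by the level at 2 hpf and, in the same way, a rise by the level at 6 hpf. The largest rise was 10.20 on the log2 scale, for krt18a.1, and the largest fall was -4.37, for zgc:163014. Rises of 16-fold or more were seen in 505 genes and falls of that size in 6. Genes that had risen made up 42.7% of the RPKM sum at 6 hpf and 8.92% at 2 hpf, and those that had fallen made up 9.21% at 6 hpf and 39.3% at 2 hpf. The sums themselves were alike, at 461376 RPKM at 6 hpf and 431798 RPKM at 2 hpf. The median risen gene stood at 20.3 RPKM at 6 hpf and 1.68 RPKM at 2 hpf, whereas the median fallen gene stood at 5.32 RPKM at 6 hpf and 23.6 RPKM at 2 hpf. A fallen gene was thus still read at 6 hpf in most cases. A typical risen gene had been low at 2 hpf but not absent, and 1229 of the 2859 risen genes had been under 1 RPKM there.

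**Figure D1:**
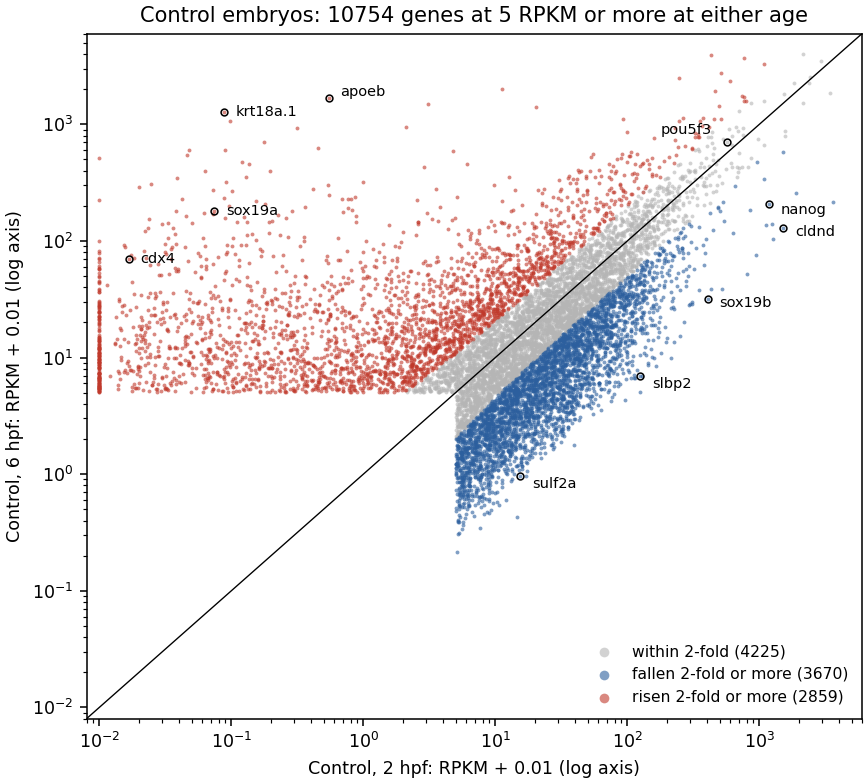
RPKM + 0.01 of each gene in control embryos at 6 hpf (vertical, log axis) and at 2 hpf (horizontal, log axis), 1 point per gene and 1 value per group of 2 libraries. Red points rose and blue points fell by 2-fold or more in RPKM + 1, grey points stayed within 2-fold, and the empty lower left corner is the 5 RPKM filter. Rises fan out to the upper left, with krt18a.1 at a log2 ratio of 10.20, and falls form a band that ends at -4.37.

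The filter shaped these counts. Of the genes compared, 6537 passed it at both ages, 2135 only at 6 hpf and 2082 only at 2 hpf, and a gene that passed at 1 age only was bound to be higher there. Among the 6537 genes past the filter at both ages, 909 had risen, 1907 had fallen and 3721 stayed within 2-fold. Just inside and outside the filter lay values of 5.003 RPKM for NIPAL3 and 5.01 RPKM for HEXA inside it, and 4.9998 RPKM for b2ml and for abi3b outside it. Steps in the lowest values showed that 1 read was worth 1.497 to 1.88 times as much RPKM at 6 hpf as at 2 hpf, as shallower libraries at 6 hpf give. A value of 5 RPKM stood for about 265 reads at 6 hpf and 438 reads at 2 hpf at a gene of median read worth, so counting error at the filter was small beside a 2-fold change; libraries of the same age may differ by more. Whole embryos were sampled, so fewer cells of a type and less RNA per cell cannot be told apart. Nor can a lower RNA amount and a shorter poly(A) tail that escapes the beads. The same holds for rises, where a higher RNA amount and a longer tail cannot be told apart.

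The level at 2 hpf set the course only in part. Of 1229 genes under 1 RPKM at 2 hpf, all had risen, as the filter required. Of 4061 genes between 5 and 20 RPKM at 2 hpf, 13.6% had risen and 40.2% had fallen. Between 20 and 100 RPKM the shares were 7.83% risen and 45.8% fallen of 3691 genes, and between 100 and 500 RPKM 7.10% and 40.7% of 803 genes. Among the 64 genes with at least 500 RPKM at 2 hpf, 19 had fallen, 9 had risen and 36 stayed within 2-fold. Falls were thus spread over RNAs of every level from 5 RPKM upward, with the lowest share among the 64 most abundant. That small set takes in part of the 13 genes of the mitochondrial genome, whose median at 2 hpf was 955.7 RPKM. Of these 13 genes 2 had fallen.

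**Figure D2:**
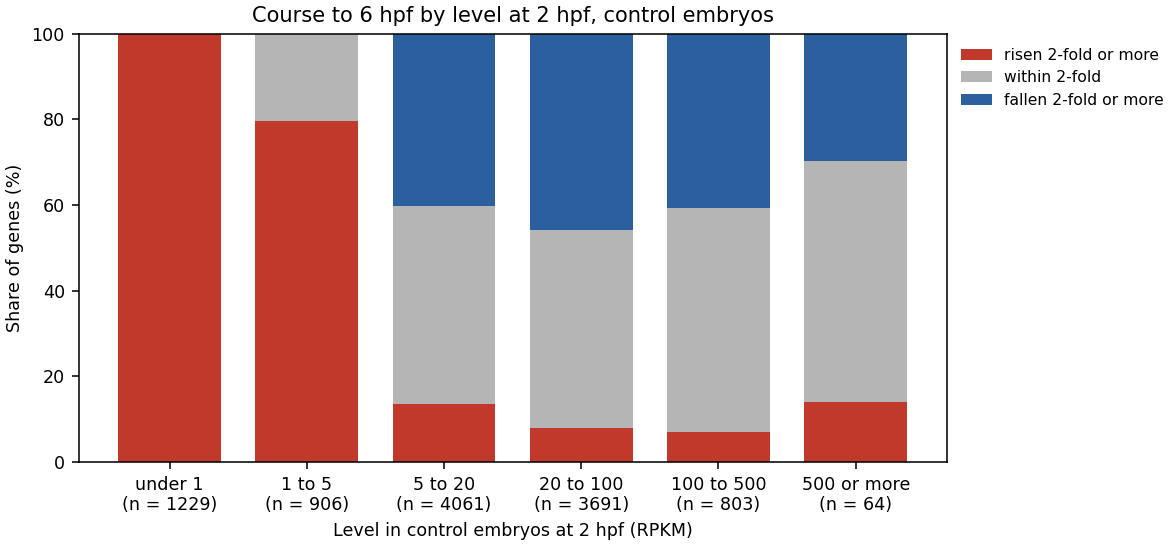
Share of genes (%) that rose (red), stayed within 2-fold (grey) or fell (blue) at 6 hpf against 2 hpf in control embryos, by RPKM at 2 hpf; n is the number of genes in each bar. In the left bars no gene could fall because of the filter, and from 5 RPKM upward the fallen share lay between 29.7% and 45.8%.

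A strict switch-on, from under 1 RPKM at 2 hpf to at least 5 RPKM at 6 hpf, was met by 1229 genes, 11.4% of those compared. They held 9.21% of the RPKM sum at 6 hpf and 0.0662% at 2 hpf, with medians of 11.9 RPKM at 6 hpf and 0.106 RPKM at 2 hpf. The reverse, under 1 RPKM at 6 hpf after at least 5 RPKM at 2 hpf, was met by 203 genes (1.89%), with medians of 0.728 RPKM at 6 hpf and 6.29 RPKM at 2 hpf. None of these cleared genes had exceeded 17.1 RPKM at 2 hpf. The class included sulf2a, which codes for a sulfatase that trims heparan sulfate, at 0.946 RPKM at 6 hpf and 15.4 RPKM at 2 hpf, and CLCN6, a chloride transporter gene, at 0.996 and 13.8 RPKM at the same ages. Between these, 2335 genes (21.7%) had at least 5 RPKM at both ages and kept within 1.5-fold of the median ratio. Among the most abundant of them were DDX39A, an RNA helicase of mRNA export, at 814.3 RPKM at 6 hpf and 756.6 RPKM at 2 hpf, and the small modifier gene sumo3b at 660.1 RPKM at 6 hpf and 620.7 RPKM at 2 hpf.

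The highest RNAs at 6 hpf were hnrnpa0l, eef1a1l1, h3f3a, MT-CO1 and khdrbs1a. The RNA-binding protein gene hnrnpa0l stood at 3983 RPKM at 6 hpf and 2120 RPKM at 2 hpf (log2 ratio 0.91). The elongation factor gene eef1a1l1 had risen to 3941 RPKM at 6 hpf, against 431.2 RPKM at 2 hpf (3.19). The replacement histone gene h3f3a had risen to 3679 RPKM at 6 hpf, against 759.9 RPKM at 2 hpf (2.27). Of the 100 highest genes at each age 50 were shared, and these 100 held 24.5% of the RPKM sum at 6 hpf and 19.5% at 2 hpf.

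Members of 32 gene lists, grouped by what the genes are known for, were then followed. Of these lists 25 had a median ratio above 0, and the germ plasm list alone had a median at or below -1. Each list's counts stand beside 26.6% risen and 34.1% fallen of all genes. Counts are over members past the 5 RPKM filter; for lists of genes that are silent in the egg, such members had to be high at 6 hpf, so their counts describe the transition and are no separate evidence for it.

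**Figure D3:**
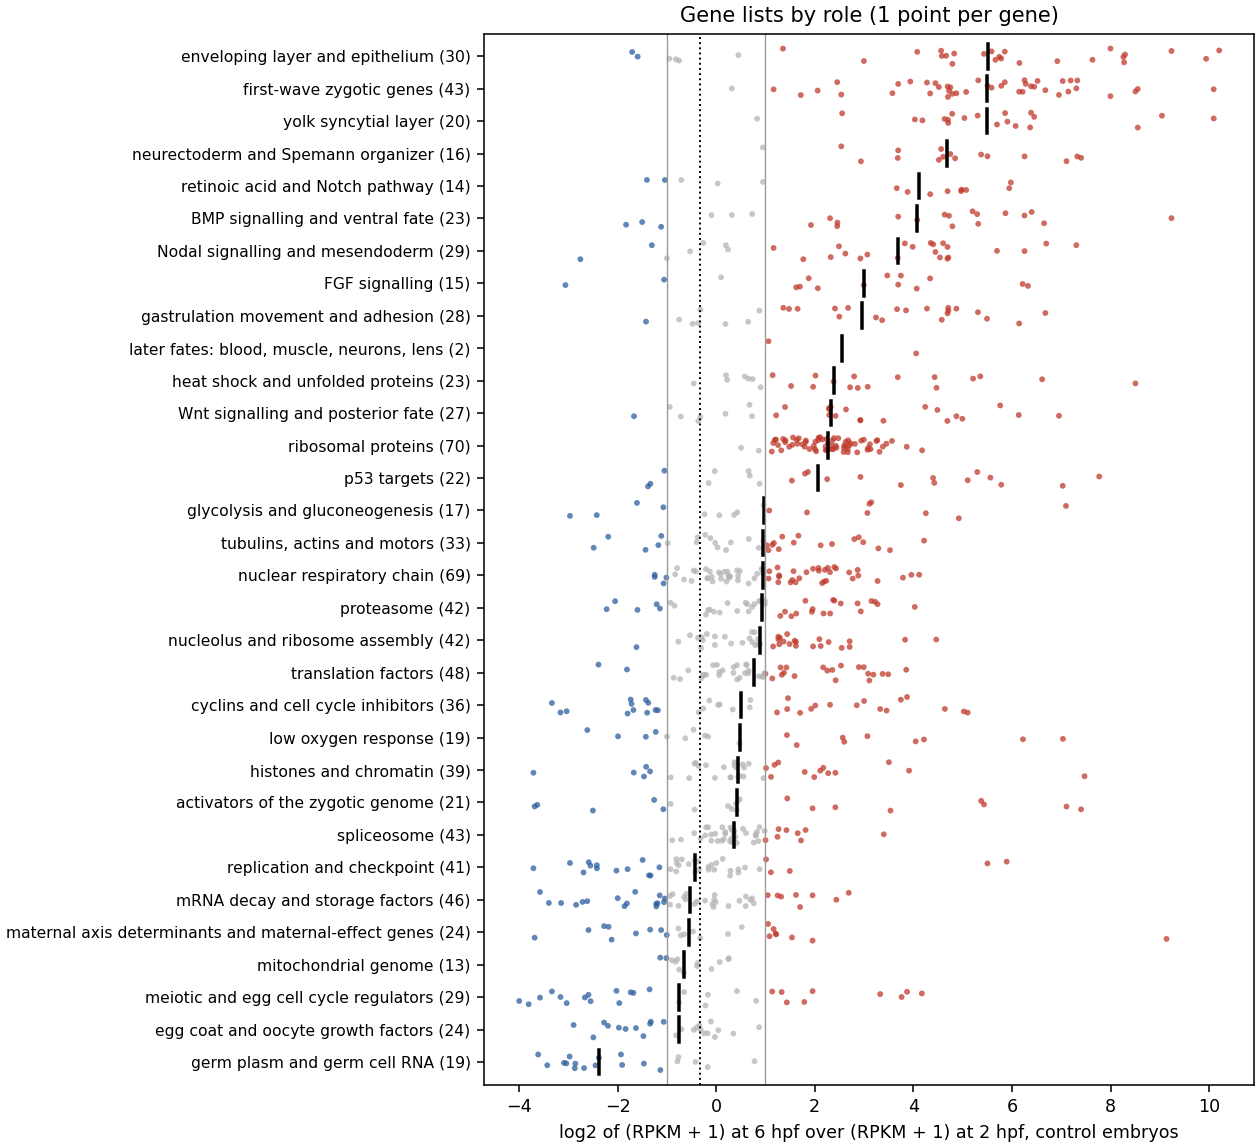
log2 ratio of RPKM + 1 at 6 hpf over 2 hpf in control embryos for the members of each gene list past the filter (number in brackets), 1 point per gene, with red for risen, blue for fallen and grey for within 2-fold. Black bars are list medians, grey lines mark 2-fold, and the dotted line is the median of all genes at -0.32; lists run from enveloping layer at 5.51 down to germ plasm at -2.38.

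Maternal RNAs of the germ plasm, the cytoplasm that makes germ cells, had the lowest median of any list, at -2.38 over 19 members. All 19 identifiers found passed the filter; 14 had fallen and 0 had risen. Buc organizes the germ plasm of the zebrafish oocyte, and its RNA buc had fallen to 14.97 RPKM at 6 hpf, against 170.4 RPKM at 2 hpf (log2 ratio -3.42). DAZL, an RNA-binding translational activator of germ cells, had fallen to 7.45 RPKM at 6 hpf, against 102.1 RPKM at 2 hpf (-3.61). DND1, which protects germ cell RNAs from miR-430, had fallen to 6.64 RPKM at 6 hpf, against 47.9 RPKM at 2 hpf (-2.68). NANOS3, a translational repressor of germ cells, had fallen to 10.8 RPKM at 6 hpf, against 43.8 RPKM at 2 hpf (-1.93). The members did not move as 1 block. DDX4, the vasa helicase of germ granules, stood at 106.8 RPKM at 6 hpf and 143.0 RPKM at 2 hpf (-0.42), and the helicase gene ddx43 stood at 60.6 RPKM at 6 hpf and 68.3 RPKM at 2 hpf (-0.17). At 6 hpf RNA kept only in the few germ cells and RNA left in all cells cannot be told apart in whole embryos.

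Egg coat genes and oocyte growth factors had a median of -0.76 over 24 members, with 11 fallen and 0 risen. The zona pellucida proteins build the egg envelope before ovulation. Among them zp3c had fallen to 8.88 RPKM at 6 hpf, against 44.2 RPKM at 2 hpf (-2.19), whereas zp3a.2 stood at 41.5 RPKM at 6 hpf and 44.7 RPKM at 2 hpf (-0.10). Growth factor genes of the oocyte had fallen too: GDF9 stood at 2.54 RPKM at 6 hpf and 25.2 RPKM at 2 hpf (-2.89), and bmp15 at 0.722 RPKM at 6 hpf and 5.75 RPKM at 2 hpf (-1.97, and -0.91 with a pseudocount of 5 RPKM). The maternal nucleoplasmin genes, whose proteins decondense sperm chromatin, did not fall, with npm2b at 117.2 RPKM at 6 hpf and 63.5 RPKM at 2 hpf (0.87).

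Regulators of meiosis and of the egg's cell cycle were split. Of 29 members 14 (48.3%) had fallen and 9 (31.0%) had risen, beside 34.1% and 26.6% of all genes. The stem-loop binding protein gene slbp2, an oocyte form that handles histone RNA, had fallen to 6.94 RPKM at 6 hpf, against 125.5 RPKM at 2 hpf (-3.99). CPEB1, which controls poly(A) tails of dormant maternal RNA, had fallen to 7.13 RPKM at 6 hpf, against 112.4 RPKM at 2 hpf (-3.80). BTG4, an adaptor that brings the deadenylase to maternal RNA in mice, had fallen to 11.8 RPKM at 6 hpf, against 151.2 RPKM at 2 hpf (-3.57). Other members that bind RNA did otherwise: YBX1 had risen to 2343 RPKM at 6 hpf, against 603.0 RPKM at 2 hpf (1.96), and PABPC1L stood at 14.1 RPKM at 6 hpf and 10.3 RPKM at 2 hpf (0.42). WEE2, the oocyte kinase that inhibits Cdk1, had fallen to 28.3 RPKM at 6 hpf, against 293.4 RPKM at 2 hpf (-3.33), while WEE1, its somatic counterpart, had risen to 54.7 RPKM at 6 hpf, against 4.07 RPKM at 2 hpf (3.46). CCNA1, the germline and early embryonic cyclin A, had fallen to 138.2 RPKM at 6 hpf, against 1241 RPKM at 2 hpf (-3.16), and CCNB1 to 338.2 RPKM at 6 hpf, against 1084 RPKM at 2 hpf (-1.68). The kinase gene CDK1 had risen to 52.6 RPKM at 6 hpf, against 4.34 RPKM at 2 hpf (3.33), and ccnb3 to 67.6 RPKM at 6 hpf, against 3.68 RPKM at 2 hpf (3.87).

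Cyclins, their kinases and inhibitors moved both ways. Of 36 cyclins, kinases and inhibitors 16 (44.4%) had risen and 12 (33.3%) had fallen, and the fallen share was near that of all genes. The Cdk inhibitor genes cdkn1ca and CDKN1B had risen to 43.0 and 7.54 RPKM at 6 hpf, against 0.350 and 0.0674 RPKM at 2 hpf (5.02 and 3.0004). Of 41 replication genes 13 (31.7%) had fallen and 5 had risen, beside 34.1% fallen and 26.6% risen of all genes, and their median of -0.43 was near that of all genes. GMNN, an inhibitor of origin licensing, had fallen to 91.4 RPKM at 6 hpf, against 374.1 RPKM at 2 hpf (-2.02), and chek2, a checkpoint kinase gene, to 7.496 RPKM at 6 hpf, against 49.9 RPKM at 2 hpf (-2.58).

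RNAs of the decay and storage machinery had a median of -0.52 over 46 members, with 16 (34.8%) fallen and 8 (17.4%) risen, beside 34.1% fallen and 26.6% risen of all genes. The fallen share was that of all genes, and the values below describe single members. LSM14B, a storage protein of the oocyte, had fallen to 28.6 RPKM at 6 hpf, against 309.7 RPKM at 2 hpf (-3.39). The helicase gene DDX6 had fallen to 3.01 RPKM at 6 hpf, against 34.4 RPKM at 2 hpf (-3.14), and the deadenylase gene CNOT8 to 61.6 RPKM at 6 hpf, against 382.0 RPKM at 2 hpf (-2.61). Their scaffold gene CNOT1 stood at 47.1 RPKM at 6 hpf and 49.7 RPKM at 2 hpf (-0.08). The readers of methylated adenosine differed: YTHDF2, which promotes maternal RNA clearance in zebrafish, had risen to 60.2 RPKM at 6 hpf, against 24.8 RPKM at 2 hpf (1.25), and YTHDF3 had fallen to 5.25 RPKM at 6 hpf, against 23.9 RPKM at 2 hpf (-1.996).

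Among the activators of the zygotic genome, 8 of 21 members (38.1%) had risen and 5 (23.8%) had fallen, beside 26.6% and 34.1% of all genes. The maternal factors took different courses. The homeodomain factor gene nanog had fallen to 207.5 RPKM at 6 hpf, against 1178 RPKM at 2 hpf (-2.50), and sox19b, the maternal SoxB1 gene, to 32.0 RPKM at 6 hpf, against 406.4 RPKM at 2 hpf (-3.63). The POU factor gene pou5f3 stood at 706.7 RPKM at 6 hpf and 566.4 RPKM at 2 hpf (0.32). The zygotic SoxB1 genes had risen: sox19a to 179.0 RPKM at 6 hpf, against 0.0640 RPKM at 2 hpf (7.40), SOX3 to 230.7 RPKM at 6 hpf, against 0.682 RPKM at 2 hpf (7.11), and SOX2 to 44.8 RPKM at 6 hpf, against 0.105 RPKM at 2 hpf (5.38). At 6 hpf the SoxB1 transcript pool was thus led by other members than at 2 hpf. EOMES, a maternal T-box factor of endoderm formation, had fallen to 14.7 RPKM at 6 hpf, against 200.7 RPKM at 2 hpf (-3.68). The helicase gene ddx3xb itself stood at 141.0 RPKM at 6 hpf and 273.9 RPKM at 2 hpf in control embryos (-0.95), and its copy ddx3xa had fallen to 41.8 RPKM at 6 hpf, against 102.7 RPKM at 2 hpf (-1.28, and -0.92 with the median-ratio rescaling); reads shared between these copies could not be told apart.

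Genes known as the first wave of zygotic transcription had a median of 5.50 over 43 members, with 42 risen and 0 fallen. Of the 43, 35 were under 1 RPKM at 2 hpf and passed the filter only through 6 hpf, so these had to rise. Others were already read at 2 hpf, with ID3 at 50.9 RPKM at 6 hpf and 8.46 RPKM at 2 hpf (2.46) and blf at 95.2 RPKM at 6 hpf and 7.07 RPKM at 2 hpf (3.58). The T-box gene tbx16 of mesoderm had risen to 162.9 RPKM at 6 hpf, against 0.0356 RPKM at 2 hpf (7.31). The toddler hormone gene apela, a guide of mesendoderm cells, had risen to 106.6 RPKM at 6 hpf, against 0.0507 RPKM at 2 hpf (6.68), and its receptor gene aplnrb to 76.7 RPKM at 6 hpf, against 0.0968 RPKM at 2 hpf (6.15). The single member within 2-fold was pou5f3, which has a large maternal store. Genes of the other end of development were mostly low. Of 38 identifiers for blood, muscle, neuron and lens genes only cahz and tubb5 passed the filter, and both had risen. The other 36 stayed at or under 2.45 RPKM, which is low but not silent. Of the 38, 23 were higher and 12 lower at 6 hpf. No gene of the hox name stem passed the filter.

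The genes of the Nodal, BMP, FGF and Wnt pathways were sorted by role. These pathways lay out the germ layers and the body axes through secreted ligands, their antagonists, receptors, intracellular transducers and the transcription factors they control. Most ligands, antagonists, feedback inhibitors and patterned transcription factors past the filter were under 1 RPKM at 2 hpf. Most receptors and transducers past the filter had at least 5 RPKM there. Exceptions ran both ways. At 2 hpf gdf3 stood at 295.2, etv5a at 173.9, etv5b at 27.9, DUSP4 at 14.9, WNT8A at 7.70 and ETV4 at 6.15 RPKM. Under 0.3 RPKM were fgfr4, FZD10 and TCF7 and 1 identifier each of FZD8 and FRS2. Of 10 ligands past the filter 8 were under 1 RPKM at 2 hpf, and the medians were 22.8 RPKM at 6 hpf and 0.142 RPKM at 2 hpf. Of 17 receptors and co-receptors 12 had at least 5 RPKM at 2 hpf, 7 had risen and 1 had fallen, and their medians were 34.4 RPKM at 6 hpf and 22.3 RPKM at 2 hpf. The 12 transducers had medians of 26.2 RPKM at 6 hpf and 59.1 RPKM at 2 hpf, with 4 risen and 4 fallen and a median ratio of -0.14, which turned to 0.21 with the median-ratio rescaling and to 0.04 with quantile normalization. Of 9 intracellular feedback inhibitors 7, and of 24 patterned transcription factors 19, were under 1 RPKM at 2 hpf and passed the filter only through 6 hpf, so their rises were bound to follow and no contrast between roles is drawn from counts of rises. Members under the filter were 8 ligand and 5 receptor identifiers among others, and 12 of 18 transducer identifiers passed it. The medians thus speak for the expressed part of each role.

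**Figure D4:**
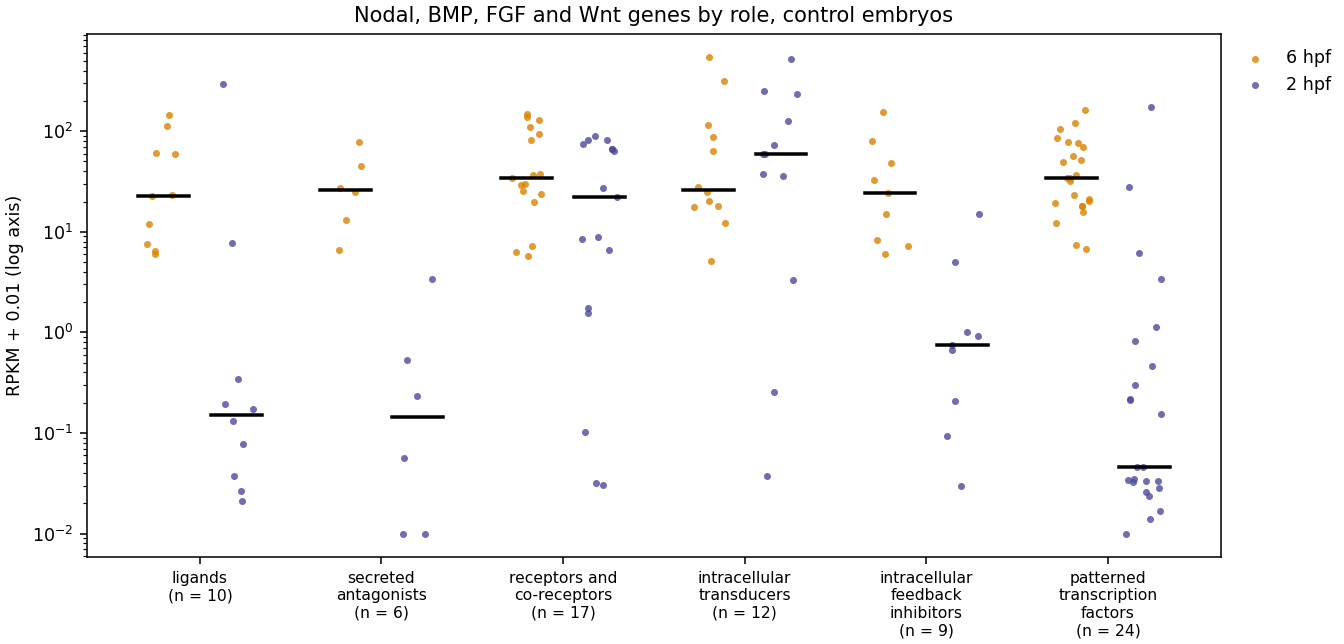
RPKM + 0.01 (log axis) in control embryos at 6 hpf (orange) and 2 hpf (violet) for genes of the Nodal, BMP, FGF and Wnt pathways past the filter, by role, 1 point per gene and bars at medians. Receptors and transducers overlap between the ages, with medians of 34.4 and 26.2 RPKM at 6 hpf, against 22.3 and 59.1 RPKM at 2 hpf, while most genes of the other roles lie under 1 RPKM at 2 hpf.

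The ligand bmp7a, which patterns ventral tissue, had risen to 111.8 RPKM at 6 hpf, against 0.122 RPKM at 2 hpf (6.65), and its partner BMP2 to 59.0 RPKM at 6 hpf, against 0.0272 RPKM at 2 hpf (5.87). Their antagonist chrd, secreted by the dorsal organizer, had risen to 78.9 RPKM at 6 hpf, against 0.0461 RPKM at 2 hpf (6.25). The BMP receptor gene acvr1l stood at 111.3 RPKM at 6 hpf and 89.0 RPKM at 2 hpf (0.32), and the transducer SMAD5 had fallen to 116.0 RPKM at 6 hpf, against 252.4 RPKM at 2 hpf (-1.12, and -0.75 with the median-ratio rescaling). For Nodal, the ligand ndr1 had risen to 6.50 RPKM at 6 hpf, against 0.334 RPKM at 2 hpf (2.49), whereas gdf3, the maternal Vg1 ligand that pairs with it, had fallen to 60.3 RPKM at 6 hpf, against 295.2 RPKM at 2 hpf (-2.27). The Nodal transducer SMAD2 had fallen to 17.7 RPKM at 6 hpf, against 125.0 RPKM at 2 hpf (-2.75), and its partner foxh1 stood at 87.1 RPKM at 6 hpf and 73.6 RPKM at 2 hpf (0.24). Targets of Nodal in the endoderm and the organizer had risen, with foxa3 at 105.0 RPKM at 6 hpf and 0.0231 RPKM at 2 hpf (6.70) and noto at 77.1 RPKM at 6 hpf and 0.0222 RPKM at 2 hpf (6.26).

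For FGF, the receptor gene fgfr4 had risen to 80.9 RPKM at 6 hpf, against 0.0216 RPKM at 2 hpf (6.32). It was 1 of 7 risen among 17 receptors and co-receptors, and 1 of 3 that were under 1 RPKM at 2 hpf. Of the FGFR1 identifiers 1 had risen too (1.70) and 1 stayed within 2-fold (0.10). The phosphatase gene DUSP6, which damps FGF signalling, had risen to 79.5 RPKM at 6 hpf, against 0.0826 RPKM at 2 hpf (6.22). For Wnt, the ligand wnt11f2, a driver of convergence and extension, had risen to 145.7 RPKM at 6 hpf, against 0.183 RPKM at 2 hpf (6.95), and the posterior homeobox gene cdx4 to 69.9 RPKM at 6 hpf, against 0.00672 RPKM at 2 hpf (6.14). Of the β-catenin genes CTNNB1 had risen to 543.0 RPKM at 6 hpf, against 232.9 RPKM at 2 hpf (1.22, and 0.86 with quantile normalization), and ctnnb2 stood at 315.9 RPKM at 6 hpf and 519.8 RPKM at 2 hpf (-0.72). Across the full lists, 22 of 29 Nodal and mesendoderm, 17 of 23 BMP, 12 of 15 FGF and 19 of 27 Wnt members had risen. Fallen members were 2 of the Nodal, 3 of the BMP, 2 of the FGF and 1 of the Wnt list. In this order 18, 12, 8 and 12 members were under 1 RPKM at 2 hpf and had to rise to pass the filter. Of 14 retinoic acid and Notch members past the filter 9 had risen and 2 had fallen, while 16 of the 30 identifiers found stayed under it. The 9 risen ones were all under 1 RPKM at 2 hpf and had to rise. Among them was ALDH1A2, which makes retinoic acid, at 30.6 RPKM at 6 hpf and 0.00402 RPKM at 2 hpf (4.98). Of 28 genes of gastrulation movement and adhesion 20 had risen and 1, FN1, had fallen. Of these 28, 12 were under 1 RPKM at 2 hpf and had to rise.

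The largest single rises, of krt18a.1 and apoeb, were of genes listed for tissues outside the germ layers. The medians of these lists were level with the 5.50 of the first-wave list. The lists are not separate sets, since apoeb is in both the yolk syncytial layer list and the first-wave list. Of 30 genes of the enveloping layer, the embryo's first epithelium, and of epithelia 24 had risen and 2 had fallen, with a median of 5.51. Of the 30, 21 were under 1 RPKM at 2 hpf and passed the filter only through 6 hpf, so these had to rise. All 11 keratin-named genes past the filter had risen. They were at or under 2.08 RPKM at 2 hpf, so they passed only through 6 hpf and had to be higher there. Keratin krt18a.1 stood at 1268 RPKM at 6 hpf and 0.0773 RPKM at 2 hpf (10.20), krt4 at 1065 RPKM at 6 hpf and 0.0872 RPKM at 2 hpf (9.94), and krt5 at 701.4 RPKM at 6 hpf and 0.166 RPKM at 2 hpf (9.24). Near-identical keratins can share reads, so single values are uncertain. Not all of the epithelial programme was new at 6 hpf: the adhesion gene epcam stood at 516.8 RPKM at 6 hpf and 870.0 RPKM at 2 hpf (-0.75), and spint1b, a protease inhibitor gene of epithelia, had fallen to 32.6 RPKM at 6 hpf, against 108.4 RPKM at 2 hpf (-1.70). Claudins seal tight junctions. Of 12 genes of the claudin name stem, with the claudin-domain gene CLDND1 among them, 7 had risen and 4 had fallen. The risen ones were at or under 2.13 RPKM at 2 hpf, so they passed the filter only through 6 hpf and had to be higher there. The maternal cldnd and cldng had fallen to 129.4 and 52.2 RPKM at 6 hpf, against 1520 and 809.9 RPKM at 2 hpf (-3.54 and -3.93). The enveloping layer claudin cldne had risen to 270.4 RPKM at 6 hpf, against 0.0621 RPKM at 2 hpf (7.997).

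Of 20 genes of the yolk syncytial layer, which moves yolk nutrients to the embryo, 19 had risen and 0 had fallen, with a median of 5.50. Of these 18 were under 1 RPKM at 2 hpf and had to rise to pass the filter. The lipid carrier genes apoeb and apoc1 had risen to 1678 and 394.2 RPKM at 6 hpf, against 0.539 and 0.0535 RPKM at 2 hpf (10.09 and 8.55). MTTP, which loads lipid onto lipoproteins, stood at 66.4 RPKM at 6 hpf and was listed at 0 at 2 hpf. The member within 2-fold was the cathepsin gene ctsla, at 1526 RPKM at 6 hpf and 857.6 RPKM at 2 hpf (0.83). Of 16 neurectoderm and organizer genes past the filter 15 had risen, while 22 of the 38 identifiers found stayed at or under 3.79 RPKM. These 15 were under 1 RPKM at 2 hpf and had to rise to pass the filter. Among them was otx2a of the forebrain and midbrain, at 27.9 RPKM at 6 hpf and 0.00545 RPKM at 2 hpf (4.85).

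Among housekeeping lists the ribosomal proteins rose as a group, and the others were mixed or mostly within 2-fold. Of 70 ribosomal protein genes 68 had risen and 0 had fallen, with a median of 2.27. Their summed level was 23783 RPKM at 6 hpf and 5926 RPKM at 2 hpf. Of the 70, 0 were under 1 RPKM at 2 hpf, and a part of poly(A) tail length in their rise was not tested. RPS6 had risen to 555.2 RPKM at 6 hpf, against 54.9 RPKM at 2 hpf (3.31). Translation factors were less uniform, with 20 of 48 risen and 2 fallen and a median of 0.76, and so were nucleolar assembly factors, with 20 of 42 risen and 1 fallen and a median of 0.89. In the nucleolus list the methyltransferase gene nop2 had risen to 60.0 RPKM at 6 hpf, against 1.76 RPKM at 2 hpf (4.46), and nol11 had fallen to 28.6 RPKM at 6 hpf, against 89.8 RPKM at 2 hpf (-1.62). Most spliceosome genes held their level, with 35 of 43 within 2-fold, 8 risen and 0 fallen. In the proteasome 18 of 42 genes (42.9%) had risen and 5 (11.9%) had fallen, beside 26.6% and 34.1% of all genes. The fallen ones included the activator and inhibitor genes PSME4 and PSMF1. These stood at 7.86 and 8.69 RPKM at 6 hpf, against 35.7 and 44.2 RPKM at 2 hpf (-2.05 and -2.22).

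RNAs of the respiratory chain differed by genome in their medians. The mitochondrial genome's 13 genes had a median of -0.65, with 11 within 2-fold, 2 fallen and 0 risen. The fallen MT-ND1 and MT-ND5 came within 2-fold with the median-ratio rescaling (-0.65 and -0.77). The sum of the 13 was 15178 RPKM at 6 hpf and 18015 RPKM at 2 hpf. Nuclear genes of the same complexes had a median of 0.94 over 69 members, with 34 within 2-fold, 31 risen and 4 fallen. The complex I gene NDUFS6 had risen to 24.8 RPKM at 6 hpf, against 0.484 RPKM at 2 hpf (4.12), while NDUFV1, a core gene of the same complex, had fallen to 20.2 RPKM at 6 hpf, against 49.1 RPKM at 2 hpf (-1.25, and -0.89 with the median-ratio rescaling). In sugar metabolism 8 of 17 members had risen and 4 had fallen. The gluconeogenic gene fbp1b had risen to 138.5 RPKM at 6 hpf, against 0.0199 RPKM at 2 hpf (7.10), and the lactate carrier gene SLC16A3 had fallen to 116.6 RPKM at 6 hpf, against 628.8 RPKM at 2 hpf (-2.42).

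Chromatin genes had a median of 0.45 over 39 members. Of these 13 (33.3%) had risen and 5 (12.8%) had fallen, beside 26.6% and 34.1% of all genes. The steepest fall was DNMT1, which maintains DNA methylation, at 38.7 RPKM at 6 hpf and 516.7 RPKM at 2 hpf (-3.71). The nucleosome-binding gene hmgn6 had risen to 206.6 RPKM at 6 hpf, against 0.169 RPKM at 2 hpf (7.47). Of 23 heat shock and unfolded protein genes 16 had risen and 0 had fallen. HSPB1 stood at 1489 RPKM at 6 hpf and 3.102 RPKM at 2 hpf (8.504). Of 22 genes listed as p53 targets 14 had risen and 3 had fallen. In these 2 lists 8 and 9 members were under 1 RPKM at 2 hpf and had to rise to pass the filter. The sestrin gene sesn3 stood at 234.1 RPKM at 6 hpf and 0.0772 RPKM at 2 hpf (7.77). Another sestrin gene, sesn2, had fallen, a call lost with the median-ratio rescaling (-0.76). Whether p53 acted on the listed genes was not tested. In the low oxygen list 9 of 19 (47.4%) had risen and 4 (21.1%) had fallen. Of 33 tubulin, actin and motor genes 16 (48.5%) had risen and 5 (15.2%) had fallen. Of 24 maternal axis and maternal-effect genes 8 (33.3%) had risen and 9 (37.5%) had fallen, near the 26.6% and 34.1% of all genes.

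Genes that share a name, apart from a final letter or number of a copy, took different courses in some cases. Of 556 such name groups 58 (10.4%) held a member that had risen and a member that had fallen. In 158 groups all members had moved the same way, so moving together was more frequent than parting. Of all genes 26.6% had risen and 34.1% had fallen, so unrelated genes part too, and how often they do was not computed. The 10.4% is therefore not read as a trait of genes that share a name. Among the 58 is 1 repeated name, 5S_rRNA. In the replication helicase, MCM3 had risen to 55.7 RPKM at 6 hpf, against 0.249 RPKM at 2 hpf (5.50), and the maternal form mcm3l had fallen to 4.48 RPKM at 6 hpf, against 31.3 RPKM at 2 hpf (-2.56). The Mediator genes MED1 and med1l crossed in the same way, at 16.2 and 5.42 RPKM at 6 hpf, against 1.08 and 35.4 RPKM at 2 hpf. The ETS factor genes of FGF signalling crossed too, with etv5b at 119.8 RPKM at 6 hpf and 27.9 RPKM at 2 hpf (2.06) and etv5a at 20.02 RPKM at 6 hpf and 173.9 RPKM at 2 hpf (-3.06). Among the poly(A)-binding genes of the nucleus, PABPN1 stood at 98.7 RPKM at 6 hpf and 41.4 RPKM at 2 hpf, and its oocyte form pabpn1l at 29.5 RPKM at 6 hpf and 122.9 RPKM at 2 hpf. The lipid synthesis regulator mid1ip1a had risen to 593.7 RPKM at 6 hpf, against 4.77 RPKM at 2 hpf, and mid1ip1l had fallen to 75.8 RPKM at 6 hpf, against 948.1 RPKM at 2 hpf. Where 2 identifiers carry the same upper-case symbol, as CD82, MKNK2 and TPI1 do, the table of names does not tell which copy is which.

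**Figure D5:**
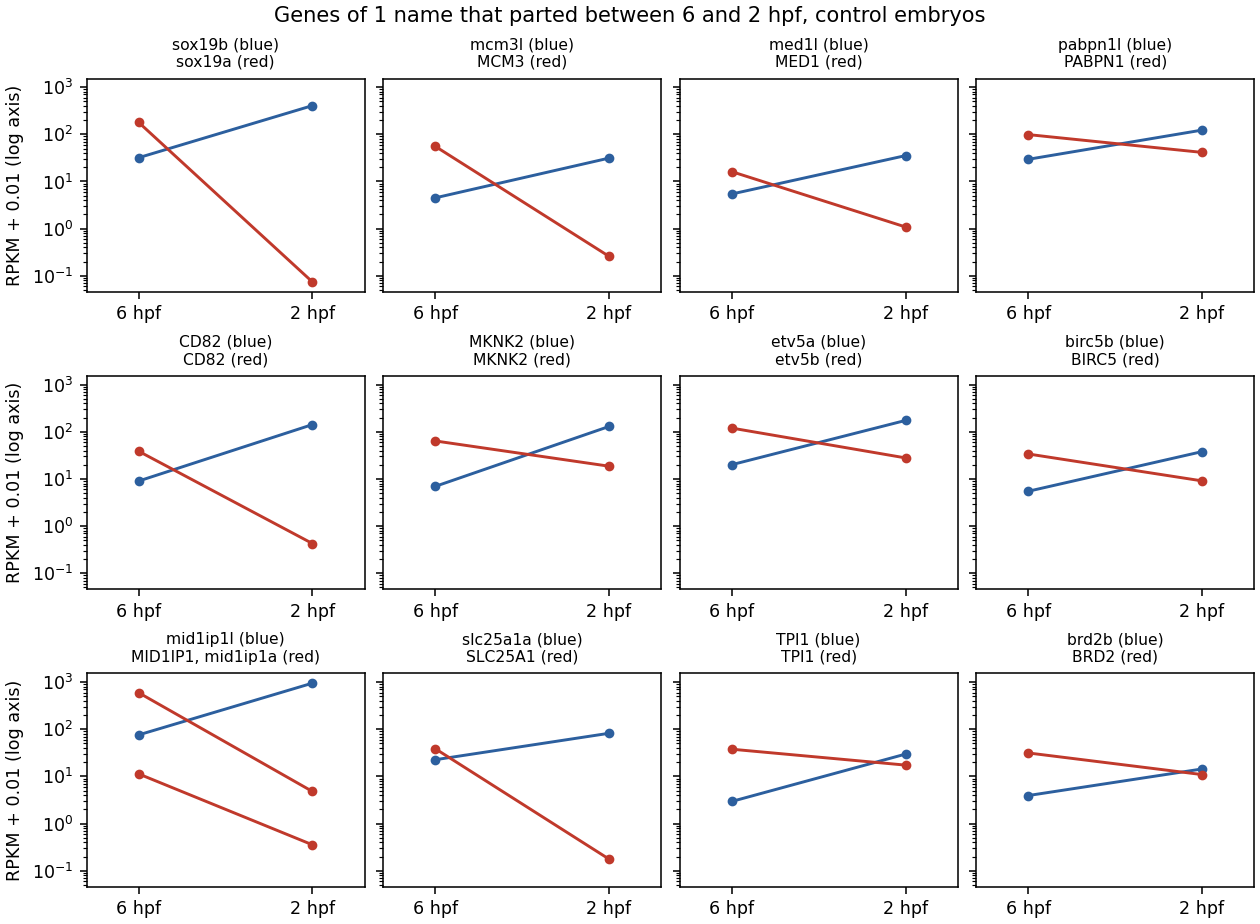
RPKM + 0.01 (log axis) in control embryos at 6 hpf (left) and 2 hpf (right) for 12 of the 58 name groups that parted, picked after their values were seen; blue lines are members that fell and red lines are members that rose. For sox19 the red line joins 179.0 and 0.0640 RPKM, and the blue line joins 32.0 and 406.4 RPKM.

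Embryos of the knockdown arm, sequenced as separate libraries, gave a further pair of values for these genes over the same ages; they differ from control in treatment, so they are no replicate. For 1 of the 2 knockdown libraries at 6 hpf the genotype label names ddx4xb and the title ddx3xb; the title was followed, and this doubt bears on every knockdown value at 6 hpf. In knockdown embryos 27.3% of the 10754 genes had risen and 17.4% had fallen at 6 hpf against 2 hpf. Of the 2859 genes that rose in control 2372 (83.0%) also rose in knockdown, and 1 fell. Of the 3670 that fell in control 1733 (47.2%) also fell in knockdown, and 3 rose. Taken the other way, 1867 genes fell in knockdown. Of these 1733 also fell in control, 133 stayed within 2-fold there and 1 rose. In knockdown 2933 genes rose, of which 2372 also rose in control, 558 stayed within 2-fold there and 3 fell. For genes called by control, the median ratios of the risen ones were 1.95 in knockdown and 2.54 in control. Those of the fallen ones were -0.95 in knockdown and -1.79 in control. Picking genes by their control calls can by itself make the knockdown ratios smaller, so these medians do not show a weaker change in knockdown. Across all 10754 genes the ratios of both arms had a Pearson's r of 0.904 and a Spearman's rho of 0.900. The genes share length, base composition and annotation between arms and are no independent replicates. The knockdown table at 2 hpf held 5 features above 5000 RPKM that took 45.1% of its RPKM sum, against 1.34% in control at 2 hpf, and their part in the difference between arms was not tested. Rescaling all tables to equal RPKM sums lowered the shared falls to 838. The sum of knockdown at 2 hpf holds these 5 features, so this rescaling moves the other values of that group with them. With the median-ratio rescaling 1516 falls were shared. Of the 58 name groups that parted in control, 26 also parted in knockdown.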

How the data were processed

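The authors deposited 4 tables of RPKM (reads scaled by gene length and library size), without headers, with 1 value per gene for each group of 2 libraries; each was matched to a group by the genotype and age in its name. Control tables are tagged wild type, whereas titles speak of a control morpholino; that both mean the same embryos is an assumption. Poly(A) RNA went into stranded KAPA libraries, per the labels' protocols. Reads were handled with SAMtools 1.9, HISAT2 2.0.5, Trimmomatic 0.36 and cutadapt 1.13 on the Zv9 build, per the submitters' processing notes. The counting tool, the use of strand, the annotation and how the 2 libraries were weighted are not stated in the sources at hand. Overlapping and antisense genes and near-identical copies are uncertain one by one.

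Genes with at least 5 RPKM in either control table were kept. Ratios were log2 of (RPKM + 1), and calls were made at 2-fold and 4-fold. With 1 value per group no test was run. Symbols matched 21939 of 33737 identifiers and 8572 of the 10754 genes; upper-case symbols without a copy letter were accepted for lettered names. The genes to be named were the 20 largest rises and falls, the 5 highest at each age, the genome activators, ddx3xb, ddx3xa and up to 6 members per list; other genes, the roles in signalling, the name groups and the name stems were chosen after their values were seen. Members and lists were chosen with earlier results of these data known. Read worth was taken from steps in 156 of 4512 genes that were low in both tables (under 0.3 RPKM, tolerance 0.0003 log2). The ratio and step scripts were tested on simulated data. Alternatives were pseudocounts of 0.1 and 5 RPKM, filters of 1 and 20 RPKM or none, 3 scalings, other class limits and the mean of both arms. Python 3.11.15, numpy 2.4.6, pandas 2.3.3 and matplotlib 3.10.9 were used.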

Additional observations from a re-analysis of the deposited data

Results flagged for a closer look

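In 4 genes the change at 6 hpf against 2 hpf ran in opposite directions in the knockdown and the control arm, past 2-fold in each; with 1 value per group the difference was not tested. The gene fam83fa had a log2 ratio of 1.09 in knockdown (7.88 RPKM at 6 hpf and 3.18 at 2 hpf) and -1.31 in control (2.22 RPKM at 6 hpf and 6.99 at 2 hpf). The gene scinlb had -1.09 in knockdown (0.778 RPKM at 6 hpf and 2.80 at 2 hpf) and 2.05 in control (9.93 RPKM at 6 hpf and 1.63 at 2 hpf). MTX1 had 1.002 in knockdown (14.97 RPKM at 6 hpf and 6.97 at 2 hpf) and -1.25 in control (4.37 RPKM at 6 hpf and 11.7 at 2 hpf). The gene zgc:171717 had 1.128 in knockdown (8.63 RPKM at 6 hpf and 3.41 at 2 hpf) and -3.45 in control (0.418 RPKM at 6 hpf and 14.5 at 2 hpf).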

How the results depend on the processing

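No paired analysis was possible because the tables hold 1 value per group, and for the same reason no library could be left out in turn. Genes risen 2-fold numbered 2859 as reported, 4453 with a filter of 1 RPKM or none, and 1445 with a filter of 20 RPKM; genes fallen 2-fold numbered 3670 as reported and 2038 with a filter of 20 RPKM. At 4-fold, 1844 had risen as reported, 870 with a pseudocount of 5 RPKM and 905 with a filter of 20 RPKM; 1381 had fallen as reported, 521 with a pseudocount of 5 RPKM, 902 with a filter of 20 RPKM, 861 with rescaling by the median ratio, and 643 with the mean of both arms, an alternative chosen after seeing the data. The median of all genes was -0.32 as reported and 0.11 with rescaling by the median ratio. With a pseudocount of 5 RPKM 1569 genes rose in both arms, against 2372 as reported, and 1068 fell in both, against 1733 as reported. Rescaling by the median ratio left 1516 that fell in both. Equal RPKM sums left 838, where 5 features hold 45.1% of the sum of knockdown at 2 hpf. Cleared genes numbered 203 as reported, 100 with rescaling by the median ratio and 25 with limits of 0.5 and 5 RPKM. The claudin median turned to -0.34 with a filter of 20 RPKM. Of 909 genes followed one by one, the 2-fold call was lost in 38 with rescaling by the median ratio, 27 with quantile normalization, 12 with equal RPKM sums, 58 with a pseudocount of 5 RPKM and 58 with the mean of both arms (GMNN at -0.80 and pabpn1l at -0.94 there); 63, 39, 15, 0 and 49 genes within 2-fold changed sign in these settings, and 0 called genes did. Promoter and protein features were planned and not run, since no sequence tables were used here. Replicate error is unknown, and depth is known only as relative read worth.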

Other observations

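Some name stems outside the lists above leaned one way, as values chosen after they were seen. Their counts stand beside 34.1% fallen and 26.6% risen of all genes in control embryos. Of 95 tmem-named genes, which code for membrane proteins of many kinds, 51 had fallen and 10 had risen at 6 hpf against 2 hpf, and of 22 sorting nexin (snx) genes, which sort endosomal cargo, 16 had fallen and 2 had risen. Of 20 tbc1d genes, which code for regulators of Rab proteins in membrane traffic, 13 had fallen and 1 had risen, and of 24 vps genes of vacuolar sorting 12 had fallen and 1 had risen. In this order the medians of these stems were -0.42, -0.42, -0.83 and -0.25 in knockdown embryos, and -1.13, -1.46, -1.36 and -0.95 in control embryos. The median of all genes was -0.32 in control and is not given here for knockdown, where 27.3% of all genes had risen and 17.4% had fallen. Of 31 zinc finger genes named znf1000 or above 20 had risen and 1 had fallen (median 2.52). All 20 risen ones were under 5 RPKM at 2 hpf and passed the filter only through 6 hpf, so they had to be higher there. Of 62 zinc finger genes with lower numbers 16 had risen and 16 had fallen, and no contrast between these sets is drawn. The chaperonin (cct) genes, which fold actin and tubulin, had 7 of 8 risen and 0 fallen.

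Of 2182 genes without a symbol 751 had risen and 656 had fallen (median -0.02), and of 8572 with a symbol 2108 had risen and 3014 had fallen (median -0.38). Of the 1229 genes under 1 RPKM at 2 hpf, which had to rise to pass the filter, 809 had a symbol. The filter thus shaped these counts, and no contrast between genes with and without a symbol is drawn. At 2 hpf 166 genes were listed at 0 in control embryos, and 100 of these were also listed at 0 in knockdown embryos. They included snord22, a small nucleolar RNA gene at 82.3 RPKM at 6 hpf, and pnhd at 100.1 RPKM at 6 hpf. Whether reads of an overlapping gene gave the snord22 value was not tested.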
